A study of Homo sapiens with 9 samples.

Results

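The fibrillar collagen chains were 8 genes, COL1A1, COL1A2, COL3A1, COL5A1, COL5A2, COL5A3, COL11A1 and COL27A1, matched by symbol to the Ensembl IDs of the count data, which held 36601 genes in all. They were followed in LX2 cells, an immortalised line derived from human hepatic stellate cells, the collagen-making mesenchymal cells of the liver. The groups were an siRNA against TAZ (siTAZ, gene WWTR1), an siRNA against YAP (siYAP, gene YAP1) and a non-targeting siRNA (siNT), with 3 libraries each. Groups follow the sample titles, since the design text names siNT in 2 places and siTAZ in none. Every culture received 20 nM siRNA by lipofection with RNAiMAX in medium with fetal bovine serum and was collected at 7 days, and RNA was sequenced with an mRNA library kit. The sequences of the siRNAs, and whether each was a pool, are not given in the sources used here, and all values come from 1 cell line. The replicates are described as biological with no statement of what separated them, so p-values measure the spread between these libraries only.

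Fibrillar collagens are secreted proteins whose chains wind into a rope-like helix before they are cut and packed into fibrils. Type I collagen, the main protein of liver scar, is built from a pair of COL1A1 chains and a COL1A2 chain, and type III is built from COL3A1 chains alone. Type V collagen, built mainly from COL5A1 and COL5A2 chains, starts and narrows type I fibrils. COL5A3 is a rarer type V chain, COL11A1 is a chain of type XI collagen, best known from cartilage, and COL27A1 forms type XXVII collagen, also best known from cartilage. YAP and TAZ are related coactivators that act on gene promoters and enhancers mainly through TEAD proteins and are known for responding to the stiffness of the surrounding matrix.

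The libraries held 16498508 to 18752805 counts in genes, and 3 counts, taken as the limit of detection, corresponded to 0.157 to 0.177 CPM (library-scaled counts, with TMM factors); this limit covers counting error only. Both knockdowns showed in their target. WWTR1 averaged 9.53 CPM after siTAZ, 75.8 CPM after siYAP and 62.0 CPM after siNT, and YAP1 averaged 170.0 CPM after siTAZ, 26.3 CPM after siYAP and 209 CPM after siNT. The share of gene counts from mitochondrially encoded genes was 1.44% to 1.65% after siTAZ, 0.730% to 1.07% after siYAP and 1.27% to 1.49% after siNT. A list of 12 stellate cell markers summed to 1377 to 1496 CPM after siTAZ, 679 to 719 CPM after siYAP and 1276 to 1312 CPM after siNT. Most of the difference after siYAP lay in TAGLN (80.7 CPM, against 561 CPM after siNT). Of the 10 markers tested, 6 were called lower after siYAP, among them PDGFRB (log2 -1.49) and SYNPO2 (log2 -2.32). The 2 called higher were ACTA2 (log2 0.65) and RELN (log2 2.37). Over all genes tested, 33.4% were called lower and 33.8% higher. In that list LRAT had no count in any library, GFAP and DES stayed under 1 CPM, and the group means of HAND2, LHX2 and NGFR lay between 3.07 and 15.5 CPM. Hepatocyte markers summed to 0.866 to 2.19 CPM after siTAZ, 12.8 to 16.02 CPM after siYAP and 1.899 to 2.004 CPM after siNT, nearly all of it SERPINA1, with at most 1 count of ALB in a library. Endothelial markers summed to 7.85 to 9.06 CPM after siTAZ, 12.6 to 16.3 CPM after siYAP and 13.2 to 16.2 CPM after siNT, and cholangiocyte markers, mostly SOX9, to 68.5 to 72.5 CPM, 79.9 to 83.1 CPM and 50.2 to 52.7 CPM in the same groups. Within the endothelial list, PECAM1 was higher after siYAP (6.39 CPM, against 0.519 CPM after siNT) and CDH5 lower (0.364 CPM, against 5.21 CPM). The macrophage and leukocyte list summed to 22.6 to 24.8 CPM after siTAZ, 126 to 131 CPM after siYAP and 34.2 to 37.9 CPM after siNT, most of it CD68, with PTPRC at 2 to 13 counts after siTAZ, 2 to 3 after siYAP and 38 to 52 after siNT. The part of these marker levels in the results below was not tested, and in bulk RNA fewer cells of a type and less RNA per cell cannot be told apart.

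The pool of fibrillar collagen transcripts was larger after siTAZ and smaller after siYAP than after siNT. The 8 genes took 1.30%, 1.28% and 1.27% of the gene counts after siTAZ, 0.629%, 0.631% and 0.627% after siYAP, and 0.828%, 0.823% and 0.820% after siNT. The groups did not overlap, and the mean shares were 1.29% ± 0.02 after siTAZ, 0.629% ± 0.0018 after siYAP and 0.824% ± 0.0039 after siNT (SD, n = 3 each). Each of the 3 comparisons had a two-sided exact permutation p of 0.1, the smallest that 3 against 3 libraries can give. Most of the fall after siYAP lay in COL1A1 (mean 2046 CPM, against 4168 CPM after siNT), the most abundant chain by counts. Next came COL3A1 (733 CPM, against 1147 CPM). Within that pool the chains did not move together after siYAP, as the following values show.

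COL1A1 encodes the alpha 1 chain of type I collagen and lies on chromosome 17 (GRCh38, chr17:50183289-50201632, minus strand, with 51 exons in its longest coding transcript). Its level was 6247, 6221 and 6296 CPM after siTAZ, 1996, 2087 and 2053 CPM after siYAP, and 4157, 4137 and 4211 CPM after siNT. COL1A1 was thus highest after siTAZ and lowest after siYAP, with wide gaps between the groups. It was higher after siTAZ than after siNT (log2 0.59, SE 0.02, edgeR's two-sided quasi-likelihood test, p adjusted by Benjamini and Hochberg's method over the 15560 genes tested, adjusted p = 7.57e-30). It was 2.04-fold lower after siYAP than after siNT (log2 -1.03, SE 0.02, adjusted p = 3.74e-44 in the same edgeR test).

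COL1A2 encodes the alpha 2 chain, the partner of COL1A1 in type I collagen, on chromosome 7 (chr7:94394561-94431232, plus strand, 52 exons). Its level was 581, 547 and 578 CPM after siTAZ, 472, 441 and 432 CPM after siYAP, and 228, 201 and 210.0 CPM after siNT. Both knockdowns lay above siNT in every library, and siTAZ lay above siYAP. COL1A2 rose 2.67-fold after siTAZ (log2 1.42, SE 0.04, edgeR adjusted p = 2.63e-33) and 2.10-fold after siYAP (log2 1.07, SE 0.04, adjusted p = 1.69e-29). After siYAP the chains of type I collagen therefore moved in opposite directions.

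COL3A1, the chain of type III collagen, lies on chromosome 2 (chr2:188974320-189012746, plus strand, 51 exons), with COL5A2 next to it on the other strand (chr2:189031896-189225312, 54 exons). The 19149 bases between them hold no annotated gene. COL3A1 stood at 2104, 2002 and 2019 CPM after siTAZ, 753, 735 and 713 CPM after siYAP, and 1181, 1151 and 1108 CPM after siNT. It followed the same order as COL1A1, with a rise of 1.78-fold after siTAZ (log2 0.83, SE 0.03, edgeR adjusted p = 1.42e-33) and a level 1.56-fold lower after siYAP (log2 -0.64, SE 0.03, adjusted p = 5.64e-29). COL5A2, the alpha 2 chain of type V collagen, stood at 1858, 1801 and 1763 CPM after siTAZ, 1655, 1650.1 and 1642 CPM after siYAP, and 1596, 1607 and 1532 CPM after siNT. Its groups lay close together, so that these neighbouring genes differed widely in how far they moved. COL5A2 rose 1.15-fold after siTAZ (log2 0.20, SE 0.03, edgeR adjusted p = 3.14e-08). After siYAP its difference from siNT was 0.06 on the log2 scale (SE 0.03, edgeR adjusted p = 0.0395), a call lost without any 1 of the 6 libraries (adjusted p 0.0766 to 0.415).

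COL5A1 encodes the alpha 1 chain of type V collagen, on chromosome 9 (chr9:134641774-134844843, plus strand, 66 exons). Its level was 2127, 2155 and 2020.4 CPM after siTAZ, 1087, 1136 and 1142 CPM after siYAP, and 1309, 1269.6 and 1289 CPM after siNT. The siTAZ libraries stood well above the rest, while the gap between siYAP and siNT was small but free of overlap. COL5A1 rose 1.63-fold after siTAZ (log2 0.70, SE 0.03, edgeR adjusted p = 1.87e-30) and was 1.15-fold lower after siYAP (log2 -0.20, SE 0.03, adjusted p = 9.75e-09). COL5A3, the rarer type V chain, lies on chromosome 19 (chr19:9959561-10010471, minus strand, 67 exons) and stood at 31.6, 32.3 and 33.1 CPM after siTAZ, 31.1, 26.5 and 33.9 CPM after siYAP, and 22.6, 22.6 and 22.02 CPM after siNT. Both knockdowns were above siNT and overlapped each other. COL5A3 rose 1.44-fold after siTAZ (log2 0.53, SE 0.09, edgeR adjusted p = 7.99e-07) and 1.36-fold after siYAP (log2 0.44, SE 0.09, adjusted p = 8.45e-06). An annotated antisense gene, AC008742.1, shares 270 exonic bases with COL5A3, and the sources used here do not say whether counting used strand, so reads from them cannot be told apart.

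COL11A1, the alpha 1 chain of type XI collagen, lies on chromosome 1 (chr1:102876467-103108872, minus strand, 67 exons). It had 39.8, 42.6 and 39.1 CPM after siTAZ, 7.61, 7.05 and 10.2 CPM after siYAP, and 14.2, 11.7 and 16.1 CPM after siNT. The siYAP and siNT libraries came close to each other, and the siTAZ libraries lay far above both. COL11A1 had the largest rise of the 8 chains after siTAZ, 2.89-fold (log2 1.53, SE 0.10, edgeR adjusted p = 5.59e-19), and was 1.70-fold lower after siYAP (log2 -0.77, SE 0.12, adjusted p = 1.94e-07). COL27A1, the chain of type XXVII collagen, lies on chromosome 9 (chr9:114155560-114312511, plus strand, 61 exons). It had 43.7, 47.8 and 42.3 CPM after siTAZ, 96.9, 89.7 and 91.8 CPM after siYAP, and 22.3, 26.4 and 24.7 CPM after siNT. Of the 8 chains it was the one whose level was highest after siYAP, with siTAZ in between. COL27A1 rose 3.79-fold after siYAP (log2 1.92, SE 0.07, edgeR adjusted p = 3.2e-35) and 1.82-fold after siTAZ (log2 0.86, SE 0.07, adjusted p = 3.94e-16).

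**Figure D1:**
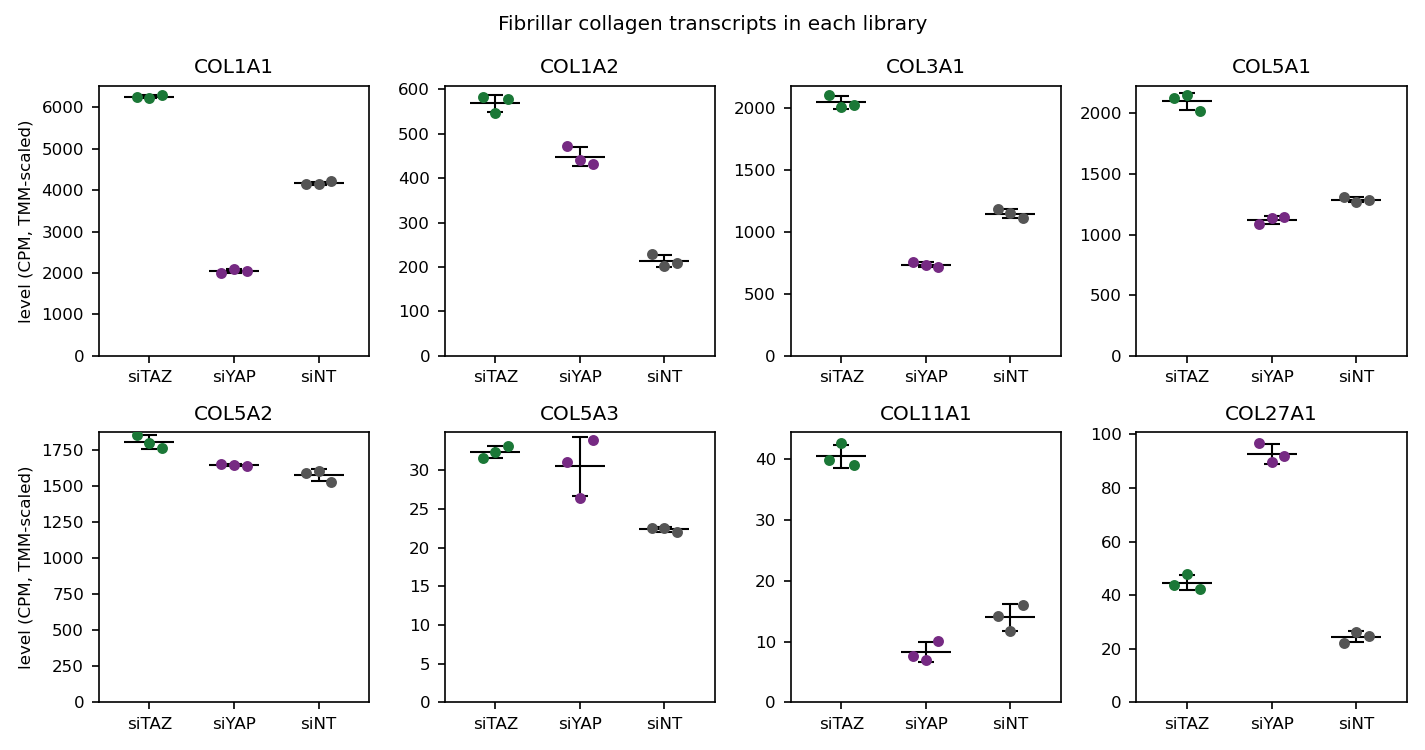
Level of each fibrillar collagen transcript (y axis, CPM after TMM scaling, starting at 0) in the 3 libraries each of siTAZ, siYAP and siNT (points), with the group mean (wide line) and SD (error bar). COL1A1 and COL3A1 are lowest after siYAP, COL1A2 is lowest after siNT, and COL27A1 is highest after siYAP.

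Counted over the list, all 8 chains were called higher after siTAZ than after siNT, where 16.4% of the 15560 genes tested were called higher and 18.2% lower. After siYAP, 4 of 8 were called higher (COL1A2, COL5A2, COL5A3 and COL27A1) and 4 lower (COL1A1, COL3A1, COL5A1 and COL11A1), against 33.8% of all genes higher and 33.4% lower. The libraries of siTAZ and siNT did not overlap for any of the 8 chains, against 44.6% of genes tested, and likewise for siYAP and siNT, against 70.5%. The median log2 fold change of the 8 chains was 0.77 after siTAZ and -0.07 after siYAP, and the medians over all genes tested were 0.01 and 0.02. The size of the changes, taken without sign, had a median of 0.77 for the chains after siTAZ and 0.19 over all genes tested, and after siYAP these medians were 0.70 and 0.45. For COL11A1, 266 of the genes tested had a larger log2 change in size after siTAZ, and for COL1A2 327 did. Both knockdowns were compared with the same siNT libraries, so their values stand side by side here and are not independent of each other.

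Compared directly, siTAZ was higher than siYAP for 6 of 8 chains and lower for 1, where 33.0% of all genes were called higher and 33.2% lower. The libraries of siTAZ and siYAP did not overlap for 7 of 8, against 68.2% of genes tested. COL11A1 differed most, at 4.92-fold higher after siTAZ than after siYAP (log2 2.30, SE 0.11, edgeR adjusted p = 1.5e-26), followed by COL1A1 at 3.06-fold (log2 1.61, SE 0.03, adjusted p = 7.58e-55) and COL3A1 at 2.78-fold (log2 1.48, SE 0.03, adjusted p = 2.41e-48). COL27A1 was the chain that was lower after siTAZ than after siYAP, 2.08-fold (log2 -1.06, SE 0.06, adjusted p = 1.86e-23 by edgeR). Differences were smaller for COL5A1 (log2 0.91), COL1A2 (log2 0.34) and COL5A2 (log2 0.13), all called. For COL5A3 the difference was 0.09 on the log2 scale (SE 0.08, edgeR adjusted p = 0.37).

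**Figure D2:**
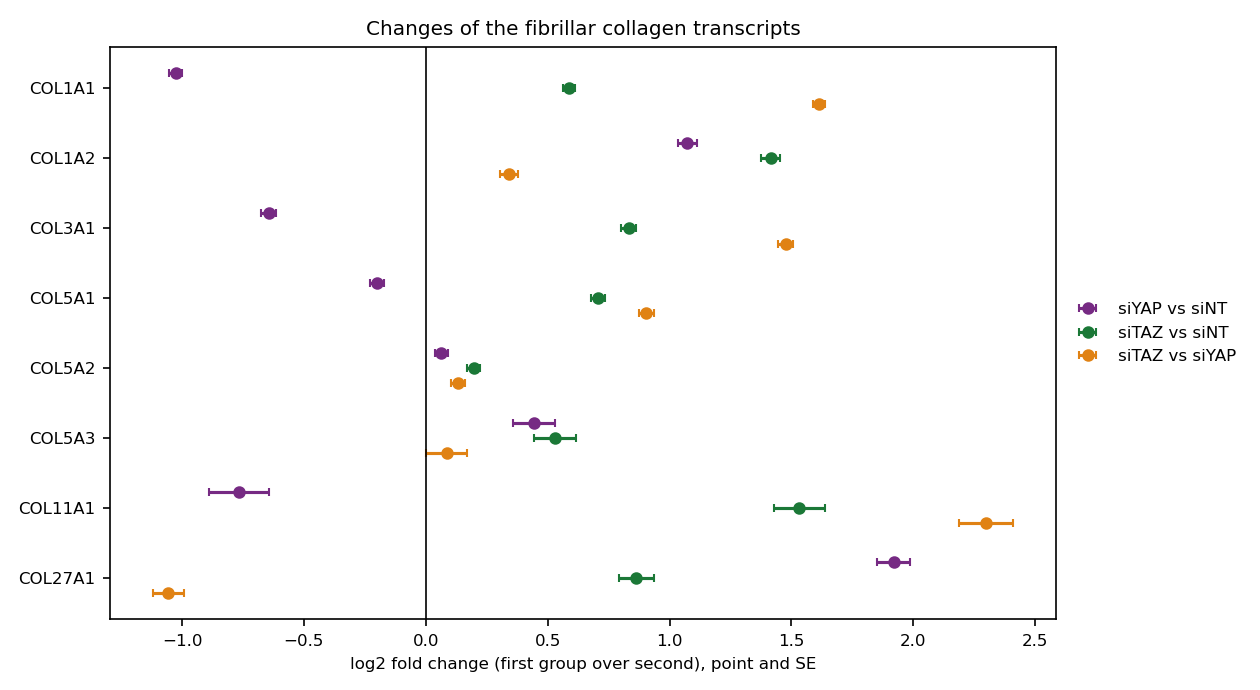
Log2 fold change (x axis) of each fibrillar collagen gene (y axis) for siYAP over siNT, siTAZ over siNT and siTAZ over siYAP, with points for the edgeR estimate and bars for its SE. All 8 siTAZ over siNT points lie right of 0, and the siYAP over siNT points lie on both sides, between -1.03 for COL1A1 and 1.92 for COL27A1.

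Levels were also set against each other per length, as CPM per kilobase of the longest coding transcript. After siTAZ the order was COL1A1 (929.8 ± 5.7), COL3A1 (368 ± 9.9), COL5A2 (255 ± 6.7), COL5A1 (248 ± 8.4), COL1A2 (105 ± 3.5), COL27A1 (5.73 ± 0.36), COL11A1 (5.52 ± 0.25) and COL5A3 (5.24 ± 0.13; SD, n = 3). COL5A2 and COL5A1 did not differ beyond their spread there, nor did COL27A1 from COL11A1 or COL11A1 from COL5A3. After siYAP the order was COL1A1 (304 ± 6.9), COL5A2 (233 ± 0.95), COL5A1 (132 ± 3.5), COL3A1 (132 ± 3.6), COL1A2 (82.9 ± 3.9), COL27A1 (11.9 ± 0.48), COL5A3 (4.94 ± 0.61) and COL11A1 (1.13 ± 0.23), with COL5A1 and COL3A1 level. After siNT it was COL1A1 (619.6 ± 5.7), COL5A2 (223 ± 5.7), COL3A1 (207 ± 6.6), COL5A1 (152 ± 2.3), COL1A2 (39.4 ± 2.5), COL5A3 (3.63 ± 0.054), COL27A1 (3.14 ± 0.26) and COL11A1 (1.91 ± 0.30). By this length COL1A1 led in every group, while the place of COL3A1 and of COL27A1 changed between them.

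The make-up of the pool differed between the groups. Per length, COL1A1 made up 48.4% ± 0.62 of the pool of 8 transcripts after siTAZ, 33.7% ± 0.65 after siYAP and 49.6% ± 0.73 after siNT (SD, n = 3 each). COL1A2 made up 5.46% ± 0.16 after siTAZ, 9.18% ± 0.45 after siYAP and 3.15% ± 0.18 after siNT. After siYAP the 2 type I chains thus went different ways within the pool. For COL1A1 the siTAZ and siNT libraries met, at 47.7% to 48.99% after siTAZ and 48.99% to 50.4% after siNT. COL5A2 made up 13.3% ± 0.23 after siTAZ, 25.8% ± 0.15 after siYAP and 17.8% ± 0.40 after siNT. COL27A1 held 0.298% ± 0.02 after siTAZ, 1.32% ± 0.058 after siYAP and 0.252% ± 0.023 after siNT. After siYAP, then, COL5A2 and COL27A1 held a larger share of a smaller pool, although the level of COL5A2 itself was close to that after siNT. With all annotated exons as the length, COL27A1 held 0.223% after siTAZ, less than COL11A1 (0.311%) and COL5A3 (0.335%), so the order of these low chains there rests on the length used. By that length COL5A2 held 32.1% ± 0.20 after siYAP, more than COL1A1 (30.2% ± 0.57). The lead of COL1A1 after siYAP thus rests on the length used as well.

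**Figure D3:**
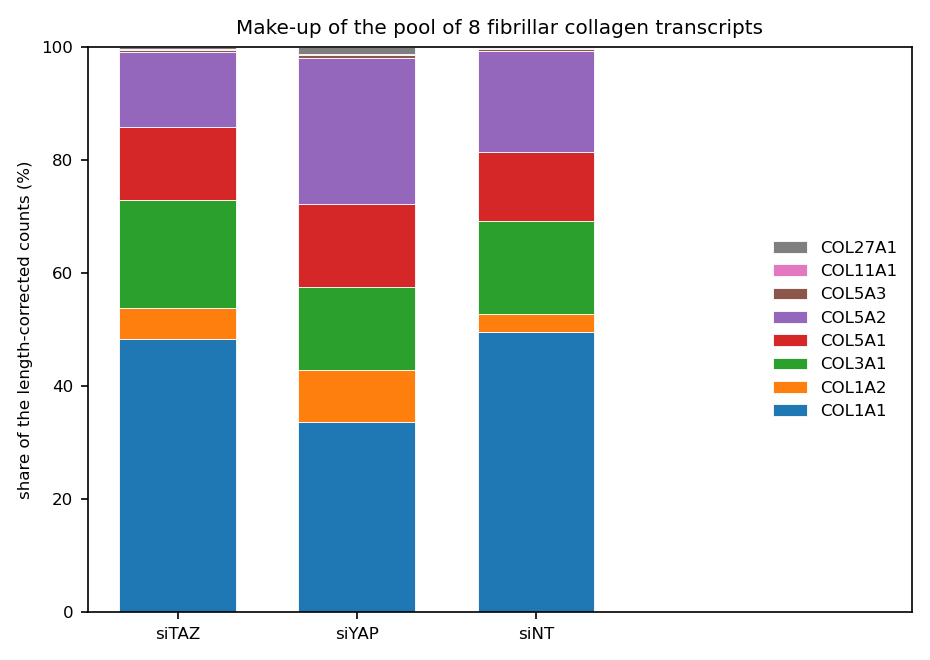
Share of the length-corrected counts of the 8 fibrillar collagen transcripts held by each gene (y axis, %, mean of 3 libraries) after siTAZ, siYAP and siNT (bars). COL1A1 holds 48.4%, 33.7% and 49.6% of these bars, and COL5A2 holds 13.3%, 25.8% and 17.8%.

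Ratios of chains within a library do not depend on how libraries are scaled to each other. Per length, the ratio of COL1A1 to COL1A2 was 8.64, 9.15 and 8.77 after siTAZ, 3.40, 3.81 and 3.82 after siYAP, and 14.6, 16.5 and 16.1 after siNT. Every library had more COL1A1 than COL1A2, the excess being smallest after siYAP and largest after siNT. The mean ratio was 8.85 ± 0.27 after siTAZ, 3.68 ± 0.24 after siYAP and 15.8 ± 0.99 after siNT (SD, n = 3 each). On the count scale the ratio was 1.78-fold lower after siTAZ than after siNT (log2 -0.83) and 4.29-fold lower after siYAP (log2 -2.10), and it was 2.41-fold higher after siTAZ than after siYAP (log2 1.27). The absolute ratio rests on the transcript length used. With all annotated exons as the length it was 12.5 after siTAZ, 5.19 after siYAP and 22.3 after siNT, and the folds between groups are not touched by that choice.

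The other 5 ratios moved less than that of the type I chains after siYAP. COL5A1 to COL5A2, the main type V chains, had mean ratios per length of 0.972 ± 0.025 after siTAZ, 0.569 ± 0.017 after siYAP and 0.683 ± 0.022 after siNT (SD, n = 3 each), a log2 difference from siNT of 0.51 after siTAZ and -0.26 after siYAP. COL5A3 to COL5A1 was 0.0211 ± 0.0012 after siTAZ, 0.0373 ± 0.0047 after siYAP and 0.0238 ± 0.00052 after siNT. So the rarer type V chain gained on COL5A1 after siYAP and lost slightly to it after siTAZ (log2 differences from siNT of 0.64 and -0.18). COL11A1 to COL5A1 was 0.0223 ± 0.00062 after siTAZ, 0.00852 ± 0.0016 after siYAP and 0.0125 ± 0.0019 after siNT. COL3A1 to COL1A1 was 0.396 ± 0.011 after siTAZ, 0.435 ± 0.020 after siYAP and 0.334 ± 0.013 after siNT, the smallest range of the 6 ratios on the log2 scale. COL5A1 to COL1A1 was 0.267 ± 0.011 after siTAZ, 0.435 ± 0.0054 after siYAP and 0.246 ± 0.0039 after siNT. No groups overlapped in any of the 18 comparisons of 6 ratios, and each had a two-sided exact permutation p of 0.1, the smallest possible, and 0.1 after Benjamini-Hochberg adjustment over the 18.

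**Figure D4:**
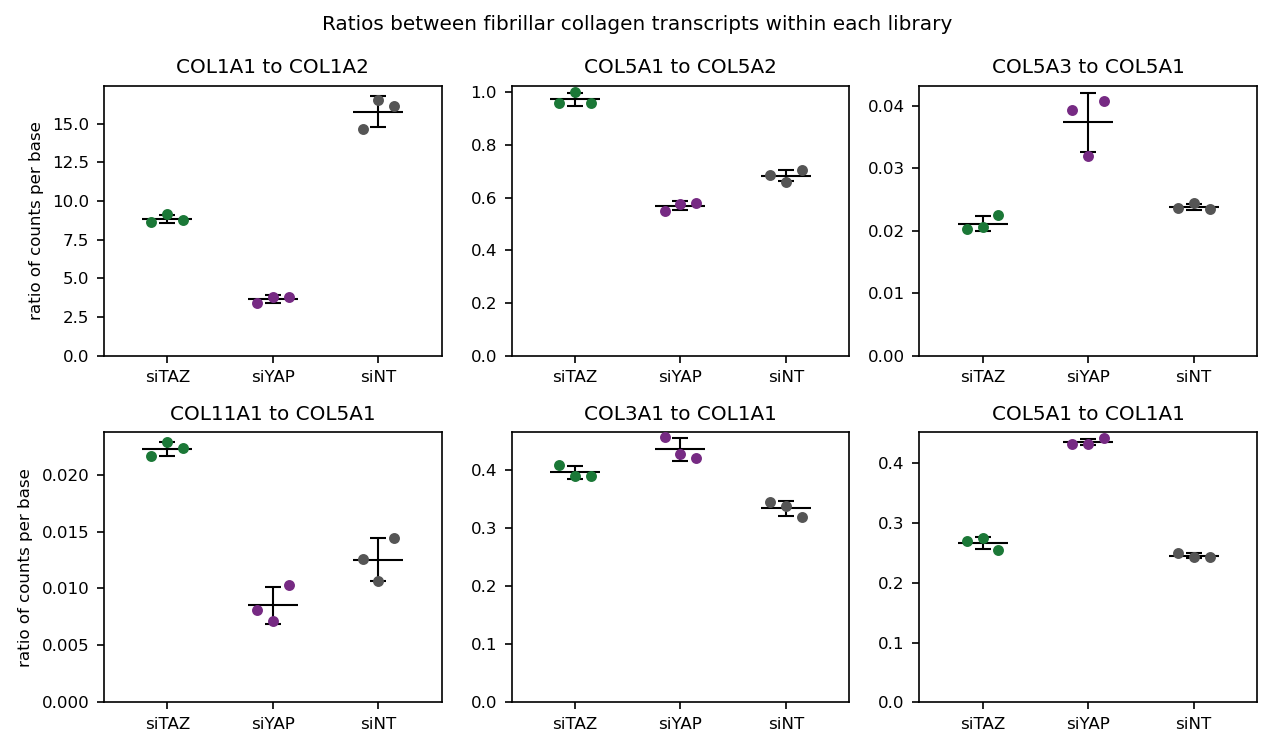
Ratio of counts per base between pairs of fibrillar collagen transcripts (y axes, starting at 0) in each library (points) after siTAZ, siYAP and siNT, with group means (wide lines) and SD (error bars). The COL1A1 to COL1A2 ratio lies between 3.40 and 3.82 after siYAP and between 14.6 and 16.5 after siNT, with siTAZ in between.

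The likeness of 2 genes was measured as the root mean square difference of their log2 CPM, each centred on its own mean, over the 9 libraries. Among the chains the nearest pair was COL1A1 and COL3A1 (0.165), and the farthest was COL11A1 and COL27A1 (1.46). COL1A1 and COL1A2, partners in the same protein, stood at 0.866, and the neighbours COL3A1 and COL5A2 at 0.550. Of 10460 genes considered, the 5 nearest to COL1A1 were MN1 (0.0697), COL6A3 (0.0755), a chain of type VI collagen, ADAM19 (0.0807), PCOLCE (0.0898), which enhances removal of the procollagen C-propeptide, and PPIC (0.0926). For COL1A2 the nearest were PLSCR4 (0.141), ABCC3 (0.147), PPP1R3B (0.179), CYP1B1 (0.190) and IGFBP7 (0.192). Each gene nearest to COL1A1 was lower after siYAP than after siNT by log2 -0.90 to -1.17, and each gene nearest to COL1A2 was higher by log2 0.69 to 1.32, a pattern the choice itself requires.

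The 3' UTRs of the chains share a short sequence that is a known feature of collagen transcripts, the site that pairs with the seed of the miR-29 microRNAs, which lower collagen levels in stellate cells. The mature miR-29 sequences are shown because they carry 1 common seed (RefSeq, GRCh38.p14, 5′ to 3′, seed bases 2 to 8 in capitals).
hsa-miR-29a-3p: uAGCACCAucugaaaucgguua
hsa-miR-29b-3p: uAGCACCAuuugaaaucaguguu
hsa-miR-29c-3p: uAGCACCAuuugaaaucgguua
The matching 7 bases, TGGTGCT, were found in the sense strand of the 3' UTR of the longest coding transcript (GENCODE 29) of 8 of 8 chains, against 14.43% of the 12884 tested genes with such a UTR. The chains' UTRs are 839 to 2540 bases long and the median over genes is 1046, so that length differs as well. COL5A1 holds 4 such sites, COL5A3 holds 3, COL3A1 and COL11A1 hold 2 each, and the other four genes hold 1. A site from each chain is given 5′ to 3′ with its flanks (the first in the UTR, site in capitals), to show its place in each UTR.
COL1A1 (chromosome 17, from UTR base 923): gagggaatcacTGGTGCTatagaaattga
COL1A2 (chromosome 7, from UTR base 520): aagaatgttgaTGGTGCTagaagaatttg
COL3A1 (chromosome 2, from UTR base 242): aaatgtctcaaTGGTGCTataataaataa
COL5A1 (chromosome 9, from UTR base 1039): tcaatgaaaatTGGTGCTtattttttaca
COL5A2 (chromosome 2, from UTR base 1190): tcctttaatgaTGGTGCTaaaattcttcc
COL5A3 (chromosome 19, from UTR base 52): tggggtgcattTGGTGCTgaggctttgaa
COL11A1 (chromosome 1, from UTR base 274): ttgaatttcttTGGTGCTgtagaaaacaa
COL27A1 (chromosome 9, from UTR base 605): tgtgaaatcgcTGGTGCTcacaattgtct
Mature microRNAs were not measured in these mRNA libraries. Over all 12884 genes, those with the site had a median log2 fold change of 0.019 after siTAZ and those without it -0.00063, and after siYAP the medians were -0.0048 and -0.016. A 7-base word known from earlier work on these data to be more frequent in genes that fell after siYAP, TGGATAA, was in 9.904% of the UTRs and in 0 of 8 chains. The word ATGAAC, which that work related to siTAZ, was in 26.19% of UTRs and in COL1A2 (2 times), COL5A1 (once) and COL5A3 (2 times). After siYAP, genes with TGGATAA had a median log2 fold change of -0.193 and those without it 0.00016. After siTAZ, genes with ATGAAC had a median of -0.040 and those without it 0.016. Both words came from these same data, so these medians are not independent of that choice. Whether the chains differ from the shares over all UTRs was not tested.

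Promoters, taken as 250 bases before to 50 bases after the start site, were at hand for COL5A1, COL5A3, COL11A1 and COL27A1 (RefSeq, GRCh38.p14). The COL11A1 window lies wholly inside the gene span given above (chr1:102876467-103108872, minus strand), which comes from GENCODE. The RefSeq start site used for COL11A1 thus lies within that span, and its window holds no sequence upstream of the span. The windows of COL11A1 and COL27A1 are printed, being the pair farthest apart across the libraries. They are given 5′ to 3′ on the strand of the gene, with GC boxes (GGGCGG, either strand) and the CCAAT box (CCAAT, either strand) in capitals.
COL11A1 (chr1:103108473-103108772, minus strand): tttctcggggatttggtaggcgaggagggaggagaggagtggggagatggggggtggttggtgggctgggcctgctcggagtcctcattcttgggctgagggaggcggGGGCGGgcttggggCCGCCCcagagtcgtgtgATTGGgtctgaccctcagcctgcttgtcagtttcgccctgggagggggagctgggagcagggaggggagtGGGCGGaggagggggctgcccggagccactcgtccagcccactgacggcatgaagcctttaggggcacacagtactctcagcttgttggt
COL27A1 (chr9:114155287-114155586, plus strand): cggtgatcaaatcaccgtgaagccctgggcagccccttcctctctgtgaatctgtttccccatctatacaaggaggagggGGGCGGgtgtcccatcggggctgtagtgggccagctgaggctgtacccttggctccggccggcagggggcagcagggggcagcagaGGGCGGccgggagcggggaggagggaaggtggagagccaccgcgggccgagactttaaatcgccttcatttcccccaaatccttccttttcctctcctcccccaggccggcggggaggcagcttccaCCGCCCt
Each of these windows holds 3 GC boxes, and GC contents are 66% for COL11A1 and 65.7% for COL27A1. Of 35116 promoters of that length, 44.95% hold a GC box and 34.61% a CCAAT box, which is present in COL11A1 and COL5A3. The letters CATTCC, bound by TEAD proteins, are in 14.03% of promoters, the AP-1 letters TGANTCA in 7.709% and TATAAA in 11.53%, searched on both strands, and no window of the 4 chains holds any of them.

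Of the other fibrillar collagen genes, COL2A1, the main collagen of cartilage, had 20, 28 and 30 counts after siTAZ, 2, 0 and 5 counts after siYAP, and 32, 43 and 29 counts after siNT. It was called lower after siYAP (edgeR adjusted p = 1.6e-08), with the siYAP mean under the limit of 3 counts, and did not pass the test after siTAZ (adjusted p = 0.392). COL11A2, the second chain of type XI collagen, had 7.29 ± 1.0 CPM after siTAZ, 5.06 ± 1.56 CPM after siYAP and 5.59 ± 0.37 CPM after siNT (SD, n = 3 each), and neither knockdown passed the test against siNT (edgeR adjusted p = 0.1 for siTAZ and 0.504 for siYAP). COL24A1 had 0 to 6 counts per library and was not tested.

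Genes that make, handle and remove fibrillar collagen were taken from 6 lists. Their counts stand beside the shares over all genes tested, which were 16.4% higher and 18.2% lower after siTAZ and 33.8% higher and 33.4% lower after siYAP, and beside all-gene median log2 fold changes of 0.01 and 0.02. The genes named are those with the largest changes among called genes whose mean log2 CPM reached 1, with a few others of the same lists added. Among 22 tested regulators of collagen transcription and mRNA, 5 were higher and 9 lower after siTAZ, and 13 were higher and 9 lower after siYAP. The 5 higher after siTAZ are near the all-gene share. LARP6, which binds a stem-loop at the start of the COL1A1, COL1A2 and COL3A1 messages and promotes their translation, stood at 45.0, 48.5 and 46.8 CPM after siTAZ, 100.2, 97.9 and 99.0 CPM after siYAP, and 57.9, 58.4 and 59.3 CPM after siNT. Its groups did not overlap, and it fell by 0.32 on the log2 scale after siTAZ (SE 0.06, edgeR adjusted p = 5.95e-06) and rose by 0.76 after siYAP (SE 0.05, adjusted p = 1.44e-19). The largest changes after siYAP were in TGFB2, a ligand that raises collagen transcription, at 26.3 CPM against 365 CPM after siNT (log2 -3.79), in SCX, a tendon transcription factor that acts on COL1A1 (log2 1.75), and in CEBPB, a transcription factor of stress and inflammation (log2 1.03). After siTAZ they were in the receptor TGFBR1, at 73.4 CPM against 169 CPM after siNT (log2 -1.21), in SCX (log2 1.03) and in SOX9 (log2 0.48), a transcription factor of cartilage collagens. Also in this list, the ligand TGFB1 was at log2 -0.17 after siTAZ and 0.99 after siYAP, and the receptor TGFBR2 at 0.45 and -0.65.

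Of 22 chain modification and folding genes tested, 15 were higher and 2 lower after siTAZ (16.4% and 18.2% of all genes), and 15 were higher and 5 lower after siYAP (33.8% and 33.4% of all genes). The list's median log2 fold change was 0.19 after siTAZ and 0.28 after siYAP, beside all-gene medians of 0.01 and 0.02. Prolyl 4-hydroxylase subunits, which stabilise the collagen helix, led after siYAP, where P4HA2 reached 716 CPM against 222 CPM after siNT (log2 1.69) and P4HA1 rose by log2 1.04. The subunit P4HA3 had a low level, at 1.37 CPM after siTAZ, 1.61 CPM after siYAP and 2.78 CPM after siNT. It was lower after siTAZ (log2 -1.02, edgeR adjusted p = 0.0122) and after siYAP (log2 -0.78, edgeR adjusted p = 0.0302). After siTAZ, FKBP7, a prolyl isomerase of the endoplasmic reticulum, rose (log2 0.85) and PLOD2, which hydroxylates telopeptide lysines, fell (log2 -0.60).

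Genes of propeptide removal and crosslinking numbered 12 tested, with 6 higher and 2 lower after siTAZ (16.4% and 18.2% of all genes), and 2 higher and 8 lower after siYAP (33.8% and 33.4% of all genes). Their median log2 fold change was 0.17 after siTAZ and -0.53 after siYAP, beside all-gene medians of 0.01 and 0.02. The protease TLL1, which removes C-propeptides, had 1.71 CPM after siYAP against 41.3 CPM after siNT (log2 -4.57). The crosslinking enzyme LOXL4 was lower after both, by log2 -1.09 after siTAZ and -3.45 after siYAP, from 13.4 CPM after siNT. More abundant crosslinking enzymes did not fall after both. LOX, at 236 CPM after siNT, fell after siTAZ (log2 -0.44) and rose after siYAP (log2 0.46). LOXL2, at 1542 CPM after siNT, rose after siTAZ (log2 0.32) and fell after siYAP (log2 -0.54), as did LOXL1 (log2 0.19 and -0.48). The enhancer PCOLCE went the way COL1A1 did (log2 0.52 after siTAZ and -0.90 after siYAP). The protease BMP1, at 226 CPM after siNT, rose after both (log2 0.59 after siTAZ and 0.42 after siYAP).

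Genes of the fibril surface and of fibril assembly numbered 15 tested, with 5 higher and 4 lower after siTAZ (16.4% and 18.2% of all genes), and 5 higher and 7 lower after siYAP (33.8% and 33.4% of all genes). The 5 higher after siYAP are near the all-gene share. After siYAP, among genes with a mean log2 CPM of 1 or more, the largest changes were in COL12A1, a collagen on the fibril surface, at 113 CPM against 989 CPM after siNT (log2 -3.13), in the proteoglycan BGN (log2 -1.92) and in fibronectin FN1, on which fibrils assemble, at 1297 CPM against 4844 CPM (log2 -1.90). After siTAZ, with the same limit, they were in BGN (log2 -1.08), in COL16A1, another fibril-associated collagen (log2 0.97), and in ITGA5, the fibronectin receptor chain (log2 0.54). ITGA5 rose further after siYAP (log2 1.59). DPT, an extracellular matrix protein that promotes fibril formation, lay under that limit and was called higher after both, with 2 to 7 counts after siTAZ, 17 to 34 after siYAP and at most 1 after siNT, where no fold can be measured.

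Compared directly, siTAZ was lower than siYAP for 8 of 10 collagen receptors tested and higher for 1. In the list of collagen breakdown, 9 of 12 tested genes were lower and 2 higher. The inhibitors TIMP1 (log2 -1.56) and TIMP2 (log2 -0.31) are among those 9. Over all genes, 33.2% were lower and 33.0% higher in that comparison. Against siNT, of the 10 receptors tested, 5 were higher and 3 lower after siTAZ, and 8 were higher and none lower after siYAP, beside all-gene shares of 16.4% and 18.2% after siTAZ and 33.8% and 33.4% after siYAP. The integrin chain ITGA2 reached 371 CPM after siYAP against 47.0 CPM after siNT (log2 2.98), ITGA1 rose by log2 1.47 and DDR1, a collagen-activated kinase, by log2 0.82. After siTAZ, ITGA1 rose by log2 0.95 and ITGA11, a receptor for type I collagen, by log2 0.94, while ADGRG1, a receptor for type III collagen, was lower (log2 -1.30). Of 12 genes tested in the breakdown list, 4 were higher and 3 lower after siTAZ, and 10 were higher and 2 lower after siYAP. The list medians were log2 0.06 and 1.23. Counted among these are TIMP1 (log2 -0.21 after siTAZ and 1.35 after siYAP) and TIMP2 (log2 0.08 and 0.40), which inhibit metalloproteinases. The collagenase MMP1 had 28.7 CPM after siTAZ, 722 CPM after siYAP and 82.1 CPM after siNT (log2 -1.52 for siTAZ and 3.14 for siYAP, each over siNT). The gelatinase MMP9 moved in the same directions (log2 -1.35 and 3.21). The collagenase MMP14 rose after both (log2 0.39 after siTAZ and 2.19 after siYAP), as did the protease FAP (log2 0.74 and 1.60). MMP8, another collagenase, had 11 to 14 counts in the siYAP libraries and none in the siTAZ and siNT libraries, and with it at its lower bound the list median after siYAP was again 1.23.

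**Figure D5:**
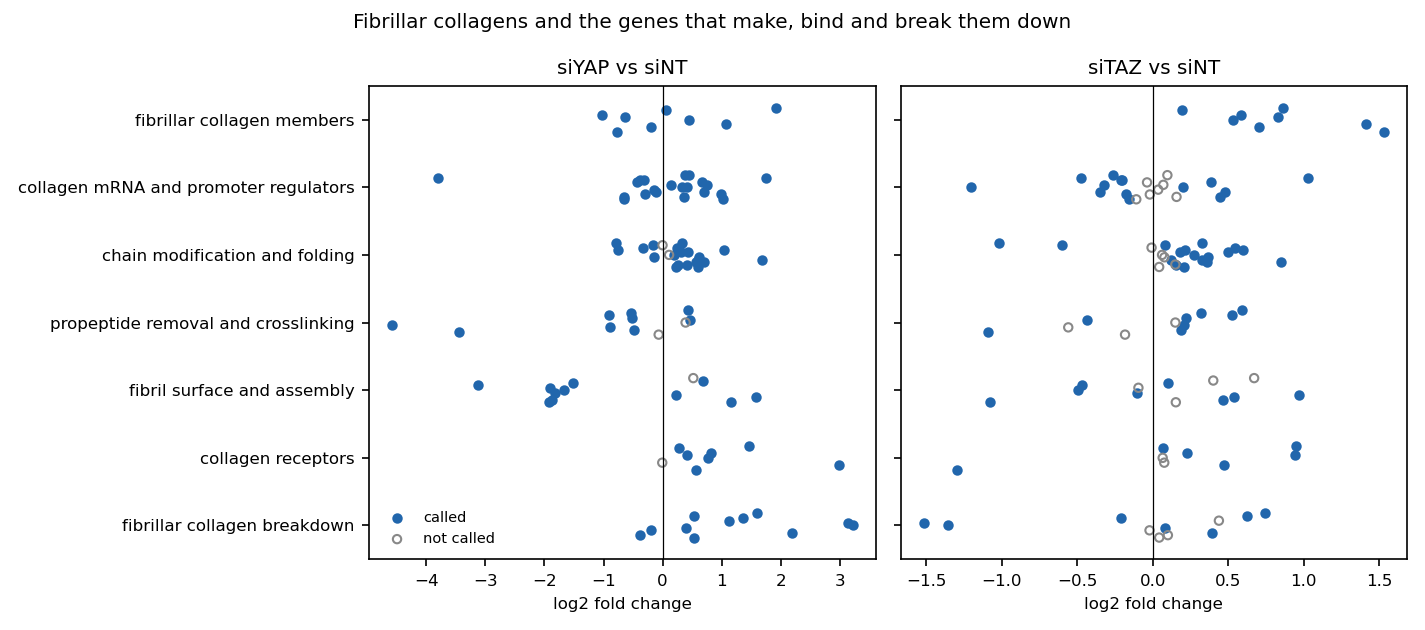
Log2 fold change over siNT (x axis, different in range between the panels) of the fibrillar collagen genes and of 6 lists of genes that act on them (y axis), after siYAP and after siTAZ, for genes whose mean log2 CPM reached 1. Filled points passed the test and open points did not. After siYAP the called receptor genes lie right of 0, and after siTAZ all 8 fibrillar collagen genes do.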

How the data were processed

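Each deposited file held unnormalized whole-number counts for 1 library, listed by Ensembl gene. The authors used STAR 2.5.0c and HTSeq, besides Trim Galore, Picard and SAMtools, per the submitters' processing notes. These notes name mm10, a mouse build, although every gene ID is human; the annotation release and strand setting are not given in the sources used here. A gene name table named 36366 of 36601 IDs and GENCODE 29 named 219 more. Coordinates, lengths and UTRs are those of GENCODE 29 on GRCh38. No-feature reads were 4.73% to 7.49% and ambiguous reads 6.33% to 6.91% of all counts and were left out.

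The tests used edgeR 4.0.16 in R 4.3.3. Genes were kept by filterByExpr (minimum count 10, minimum total 15), which left 15560, and scaled by TMM. All 9 libraries entered a robust quasi-likelihood fit, with two-sided tests, with Benjamini-Hochberg adjustment over the 15560 genes and calls at an adjusted p under 0.05. Chain ratios and shares were tested by two-sided exact permutation over libraries (Python 3.11.15, SciPy 1.17.1). DESeq2 1.42.0 and limma 3.58.1 (voom) were alternatives, with other scalings, filters and each library left out.

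The 8 chains and the 6 lists were chosen with earlier results of these data known. Named from each list were up to 3 called genes with the largest change and an average log2 CPM of at least 1. LARP6, YAP1, WWTR1 and the other fibrillar collagens were always named. Outside this rule, TGFB1, TGFBR2, LOX, LOXL1, LOXL2, DPT, MMP8, TIMP1 and TIMP2 were also named. Of 23 listed modification genes, 22 matched an ID. Nearest genes needed an average log2 CPM of at least 3. Replicate numbers are shared between groups, but same-numbered libraries did not deviate together (correlations -0.03 to 0.01), so no block was used.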

Additional observations from a re-analysis of the deposited data

How the results depend on the processing

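Under RLE and upper-quartile scaling, no filter or a stricter one, limma-voom, DESeq2, a fit of the compared groups alone, leaving out each library and, added after seeing the data, library totals alone, the calls and directions of the chains held with the exceptions given here. The call of COL5A2 after siYAP was lost with no filter (log2 0.04, adjusted p = 0.358 by edgeR), with the compared groups alone (log2 0.05, adjusted p = 0.0849 by edgeR) and without any 1 library (log2 0.03 to 0.07). With no filter COL1A1 after siYAP was at log2 -1.05 in place of -1.03; the cause was not tested. For siTAZ over siYAP, the uncalled log2 difference of COL5A3 was -0.0049 without siYAP replicate 2 and lay between that and 0.17 over the libraries left out. The difference in the share of counts was -0.195 percentage points for siYAP over siNT, 0.462 for siTAZ over siNT and 0.657 for siTAZ over siYAP. It was -0.181, 0.401 and 0.582 with all counts as denominator, and -0.200 for siYAP over siNT and 0.671 for siTAZ over siYAP without mitochondrially encoded genes. Upper-quartile scaling turned the balance over all genes after siTAZ (2865 higher and 2616 lower, against 2559 and 2832), as did library totals alone (3117 and 2439), which also gave 5960 higher and 4571 lower after siYAP, against 5254 and 5194; all 8 chains stayed higher after siTAZ.

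The replicate number as a block changed no call of a chain: 5240 genes were higher and 5194 lower for siYAP over siNT, 2552 and 2861 for siTAZ over siNT, and 5114 and 5154 for siTAZ over siYAP. Same-numbered libraries share only a number. With 3 libraries a group, permutation over libraries cannot go under 0.1, so the ratios and shares rest on size and lack of overlap.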

Other observations

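MIR29B2CHG, the host transcript of the genes for miR-29b and miR-29c on chromosome 1, was looked at after its values were seen. It had 0.704, 1.53 and 0.808 CPM after siTAZ, 2.77, 1.77 and 2.07 CPM after siYAP, and 0.825, 0.690 and 1.02 CPM after siNT. The siYAP libraries lay above all the others, at 34 to 52 counts. It was higher after siYAP than after siNT (log2 1.38, SE 0.39, edgeR adjusted p = 0.00156) and did not pass the test after siTAZ (log2 0.26, adjusted p = 0.686). The level of a host transcript is not that of a mature microRNA, and its part in the collagen levels was not tested.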
